A study of Homo sapiens with 4 samples.

Results

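The 10 genes described here (DUSP4, DUSP6, SPRY1, SPRY2, SPRY4, SPRED1, ETV4, ETV5, PHLDA1 and EPHA2) are transcribed in response to the RAS-RAF-MEK-ERK (MAPK) cascade, and most of their products act back on it. They were chosen by symbol and found by NCBI Gene ID among the 18882 gene IDs of the deposited libraries. All 10 passed the filter on low counts that left 14298 genes for testing. The libraries were made from BT-474, an established luminal B-like breast cancer cell line grown in RPMI-1640 with serum. The control group held 2 libraries of wild-type BT-474 cells (replicates 1 and 2). The other group held 2 libraries of BT-474 NRP-1 cells (replicates 2 and 3), made from transfected colonies that stably carry an NRP-1 expression plasmid and were selected with Geneticin. The number of colonies behind each library is not given in the sources used here, and cells with the empty plasmid were not among the libraries. Clone, drug selection and NRP-1 therefore cannot be told apart.

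In the MAPK cascade, receptor tyrosine kinases activate RAS, which signals through RAF and MEK to the kinase ERK. ERK activity induces its own inhibitors: the phosphatases DUSP4 and DUSP6 remove the activating phosphates from ERK, and the Sprouty proteins and SPRED1 act further upstream, at the level of RAS and RAF. ERK also raises the ETS transcription factors ETV4 and ETV5, in part by relieving repression by the protein CIC. In breast cells with ERBB2 amplification, such as BT-474, the RNA of these genes is widely read as a measure of pathway output, although RNA does not measure kinase activity itself.

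NRP1 counted 7 and 8 reads in control against 103 and 62 with the plasmid (log2 fold change 3.38, SE 0.42, adjusted p = 0.044, edgeR's quasi-likelihood test). The edgeR call did not hold without either control library or without the filter on low counts, where no gene's call held. It was also lost in limma, and the same losses held for CD68 below. The log2 fold change of NRP1 was 3.29 without control replicate 1 and 3.47 without control replicate 2. DESeq2 gave adjusted p-values of 8.63e-06 for NRP1 and 1.3e-06 for CD68. Library totals were close, from 8243595 to 8448926 expected counts. The control libraries were much alike and the NRP-1 libraries were not, with biological coefficients of variation of 0.064 and 0.225. Each of the 8 luminal markers, among them KRT8, ERBB2 and ESR1, had more than 3 reads in every library. Their summed level was 11403 to 11639 CPM (counts scaled to a common library total) in control and 11578 to 13562 CPM in NRP-1 libraries. The sum hides single genes. GATA3 was at 22.7 and 22.6 CPM in control and 80.9 and 33.9 in NRP-1 libraries. Its log2 fold change was 1.34 (adjusted p = 0.126 in edgeR and 0.0099 in DESeq2). The other luminal markers ran from -0.31 (EPCAM) to 0.27 (KRT8), none called by edgeR. ESR1 was at 32.1 CPM in NRP-1 replicate 2 and 86.3 in replicate 3. Of the markers of other cells, 4 of 6 fibroblast and 1 of 4 endothelial genes had at most 3 reads in every library, including the defining genes DCN, PDGFRB and TEK, which had none, and the T cell gene CD3E also had none. The summed fibroblast level, nearly all of it COL1A1, was 212 to 214 CPM in control and 160 to 178 in NRP-1 libraries. The summed leukocyte level, from LYZ, CD68 and a little PTPRC, was 98.7 to 112 and 75.1 to 78.0 CPM (CD68 alone had a log2 fold change of -1.67, with an adjusted p of 0.0423 in edgeR), and the summed endothelial level was 5.05 to 6.69 and 6.58 to 8.69 CPM. The part of these shifts in the results below was not tested. In bulk RNA, fewer cells that express a gene and less RNA per cell cannot be told apart. The labels do not say whether replicates came from separate cultures, so p-values measure only the spread between these libraries, which may be technical.

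None of the 10 genes passed an adjusted p of 0.05 in edgeR's quasi-likelihood test, where 1.09% of all genes tested did (59 of them higher with NRP-1 and 97 lower). Before adjustment, 2 of the 10 had a p under 0.05, ETV4 on the higher side and DUSP6 on the lower, against 22.9% of all genes. DESeq2 also called none of the 10, where it called 6.67% of all genes. On the CPM scale both NRP-1 libraries lay above both controls for 1 gene, ETV4, against 27.9% of all genes. They lay below both controls for 4 genes (DUSP6, SPRY2, ETV5 and PHLDA1), against 28.3% of all genes. The median log2 fold change of the 10 was -0.19, beside 0.02 over all genes tested and 8 of the 10 fold changes were below 0, as were 6897 of the 14298. The shares of calls and of separated groups were thus near those of the whole table, with no test of the 10 genes as a group.

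**Figure D1:**
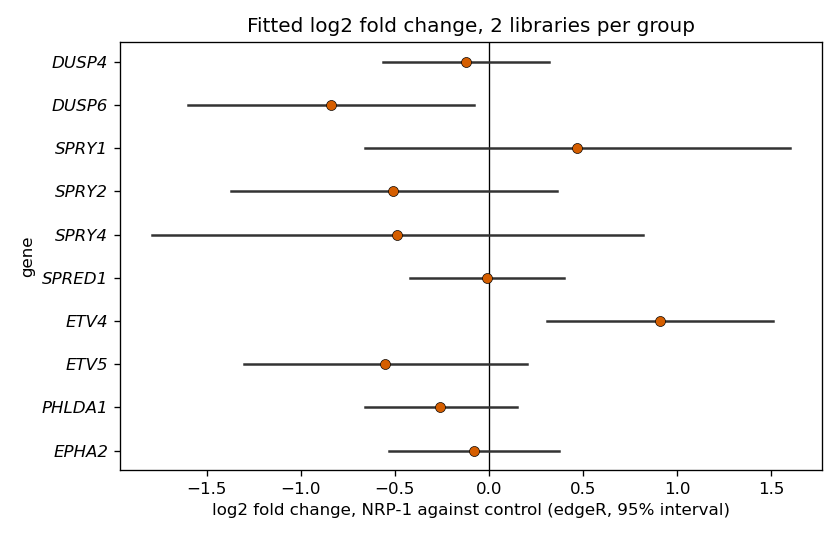
Fitted log2 fold change of each gene in BT-474 NRP-1 against control cells (horizontal axis). Lines are 95% confidence intervals computed from edgeR's quasi-likelihood test, with 2 libraries per group. The intervals of DUSP6 (-1.60 to -0.08) and ETV4 (0.31 to 1.51) do not cross 0, and the other 8 do.

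Short promoter sequences are shown because several of these genes share regulators, and a reader can see which windows hold the letters of their motifs. RefSeq sequences of the 250 bases before a transcript start (build GRCh38.p14) were matched to 7 of the 10 genes, in 10 windows. DUSP4, ETV4 and ETV5 had no window and were not searched, so whether their promoters hold these motifs is not known here. The octamer bound by CIC was searched as TGAATGAA, TGAATGGA, TCAATGAA and TCAATGGA on both strands, and stands in capitals in the DUSP6 and EPHA2 stretches. The core of ETS sites was searched as CCGGAA on both strands, and stands in capitals in the SPRY1, SPRY2 and PHLDA1 stretches. Each stretch has 30 bases and is written 5′ to 3′ along the strand of its gene. They lie at chr12:89352507-89352536 (DUSP6, minus strand), chr1:16156085-16156114 (EPHA2, minus), chr4:123398307-123398336 (SPRY1, plus), chr13:80341251-80341280 (SPRY2, minus) and chr12:76031848-76031877 (PHLDA1, minus).
DUSP6: cggagaatgtaTCCATTGAgacgctcgctg
EPHA2: cacgcagggcaTGAATGAAcaggagtcggt
SPRY1: tgccctccgcagCCGGAAgggggccgcggg
SPRY2: tccctgcctcctCCGGAAaggcgagggcgc
PHLDA1: gaggagaggagtTTCCGGggctcgggtccg
The CIC octamer began 24 bases before the DUSP6 start and 34 bases before the EPHA2 start, and 3.18% of all 35116 windows of this length held one. The ETS core began 67, 142 and 89 bases before the SPRY1, SPRY2 and PHLDA1 starts, and 14.5% of all windows held it. The CRE, searched as TGACGTCA, was found 51 bases before the EPHA2 start (1.65% of all windows). The AP-1 site TGANTCA was in none of the 10 windows, against 6.57% of all. A match is a description of letters and not of a bound site.

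Levels between genes were compared as FPKM, the authors' value per transcript length and library size. In control cells the phosphatases stood far above the rest, DUSP4 at 175 ± 7.71 FPKM (SD, n = 2) and DUSP6 at 85.1 ± 1.52. SPRY1 (8.44 ± 0.113), SPRED1 (7.03 ± 0.813), SPRY4 (6.20 ± 1.34), PHLDA1 (5.03 ± 0.113), EPHA2 (4.36 ± 0.0849) and ETV4 (4.34 ± 0.184) followed. SPRY2 (2.75 ± 0.106) and ETV5 (2.22 ± 0.651) were lowest. Neighbours whose control libraries overlapped, and whose order is therefore not resolved, were SPRED1 with SPRY4, EPHA2 with ETV4, and SPRY2 with ETV5. In BT-474 NRP-1 cells the first 3 places were the same by mean, and ETV4 stood 4th instead of 8th. Its NRP-1 libraries (9.84 and 6.51 FPKM) overlapped those of SPRY1 (17.62 and 6.13) above it and SPRED1 (7.94 and 6.36) below it, so these places are not resolved.

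**Figure D2:**
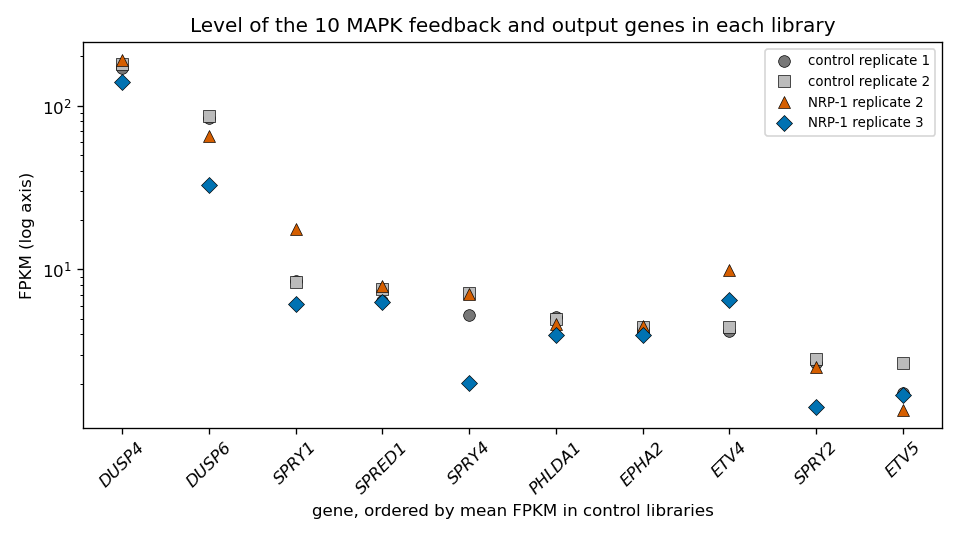
FPKM of each gene (log axis) in the 4 libraries, with genes ordered by their mean in control libraries and 1 symbol per library. DUSP4 and DUSP6 lie above all other genes in every library, and the symbols of NRP-1 replicate 3 lie lowest for most genes.

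The phosphatases differed from each other. DUSP6, which acts on ERK in the cytoplasm, had 1977 and 2036 reads in control replicates 1 and 2, 1556 in NRP-1 replicate 2 and 779 in NRP-1 replicate 3. Both NRP-1 libraries lay below both controls, and replicate 3 was at 0.50 of replicate 2 (95% counting interval 0.458 to 0.545). The level was 246 ± 2.96 CPM (SD, n = 2) in control and 137 ± 64.7 with NRP-1. The log2 fold change was -0.84 (SE 0.31, adjusted p = 0.184, edgeR's quasi-likelihood test), and DESeq2 gave an adjusted p of 0.0626. NRP-1 replicate 2 alone against the controls gave -0.42 and replicate 3 alone -1.43, so the size of the difference depended on the library while its direction did not. In the GENCODE 29 annotation, 40.5% of the DUSP6 exon bases are shared with AC024909.2 on the opposite strand. Whether the counting used strand is not given in the sources used here, so reads of the antisense gene cannot be told apart from those of DUSP6.

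DUSP4, a nuclear phosphatase of ERK and other MAP kinases, had 7967 and 8541 reads in control and 9141 and 6680 in NRP-1 libraries. One NRP-1 library was above both controls and the other below both, so the groups overlapped. Its log2 fold change was -0.12 (SE 0.18, 95% interval -0.56 to 0.32, adjusted p = 0.732 in edgeR). The FPKM ratio of DUSP4 to DUSP6 within a library was 2.02 and 2.09 in control and 2.92 and 4.21 in NRP-1 libraries. The ratio was thus higher in both NRP-1 libraries, a difference of 0.77 in mean log2 ratio. Its exact two-sided permutation p was 0.33, the smallest that 2 libraries against 2 can give.

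SPRY4 and SPRY1 had the widest gap between the NRP-1 libraries among the 10 genes. SPRY4, an inhibitor of RAS-RAF signalling, had 216 and 296 reads in control, 295 in NRP-1 replicate 2 and 85 in NRP-1 replicate 3. Replicate 2 lay within the controls and replicate 3 far below them, at 0.288 of replicate 2 (interval 0.223 to 0.367). The control libraries also differed, at 1.35 (1.13 to 1.62). The fitted log2 fold change was -0.49 (SE 0.53, adjusted p = 0.628, edgeR), and it was 0.15 with replicate 2 alone and -1.66 with replicate 3 alone.

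SPRY1, a further Sprouty family inhibitor, had 172 and 170 reads in control, 366 in NRP-1 replicate 2 and 128 in NRP-1 replicate 3. The NRP-1 libraries thus stood on opposite sides of a pair of nearly equal controls, with replicate 3 at 0.349 of replicate 2 (0.283 to 0.428). Its fitted log2 fold change was 0.47 (SE 0.46, adjusted p = 0.586, edgeR), from 1.04 with replicate 2 alone to -0.49 with replicate 3 alone. A mean over the NRP-1 libraries describes neither of them for this gene.

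SPRY2 was the least abundant Sprouty gene of the 10, with 47 and 50 reads in control and 45 and 26 in NRP-1 libraries. Both NRP-1 libraries were below both controls, replicate 2 by little. The log2 fold change was -0.51 (SE 0.35, adjusted p = 0.440, edgeR), and at these counts the interval of -1.37 to 0.36 spans values on both sides of 0. SPRED1, a Sprouty-related protein that brings the RAS inhibitor NF1 to the membrane, had 391 and 463 reads in control and 488 and 394 in NRP-1 libraries. The groups overlapped, and its log2 fold change was -0.01 (SE 0.17, interval -0.42 to 0.40, adjusted p = 0.975, edgeR). SPRY3, SPRED2 and SPRED3, the other genes of these families, are counted among the pathway lists below.

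**Figure D3:**
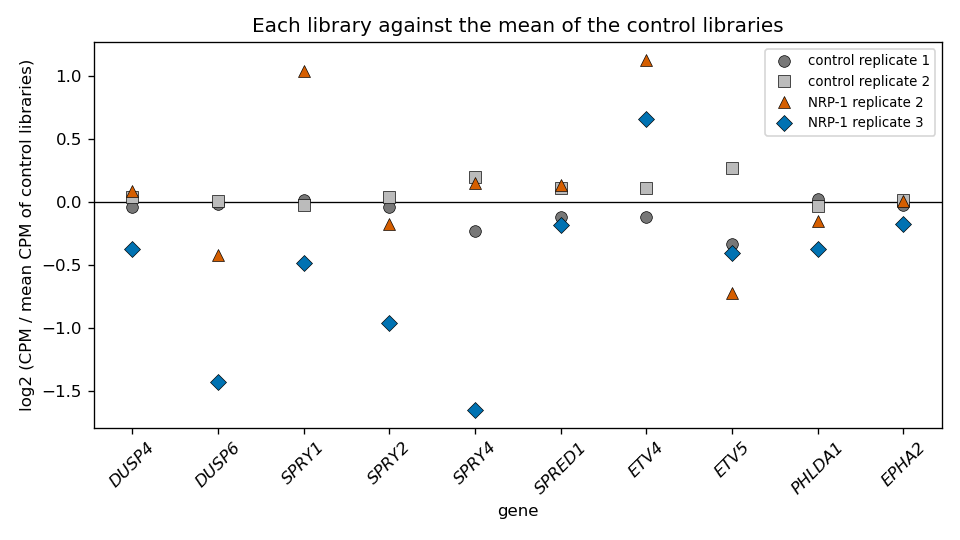
CPM of each gene in each of the 4 libraries as log2 over the mean of the control libraries (vertical axis), with genes ordered by role. SPRY1 and SPRY4 show NRP-1 replicate 2 at 1.04 and 0.15 and replicate 3 at -0.48 and -1.65, and ETV4 is the one gene with both NRP-1 symbols above both controls.

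The PEA3-family factors ETV4 and ETV5 lay on opposite sides of the controls. ETV4 had 73 and 87 reads in control, 182 in NRP-1 replicate 2 and 132 in NRP-1 replicate 3. Both NRP-1 libraries were above both controls, by 1.46 to 2.38 times over the 4 pairs of libraries. The level was 9.79 ± 1.13 CPM (SD, n = 2) in control and 18.5 ± 4.17 with NRP-1. The log2 fold change was 0.91 (SE 0.24, adjusted p = 0.107, edgeR's quasi-likelihood test) and DESeq2 gave an adjusted p of 0.103. Each NRP-1 library alone gave the same direction, 1.13 for replicate 2 and 0.65 for replicate 3. The files' average transcript length of ETV4 varied from 2102 to 2398 bases between libraries, within both groups. ETV4 shares 1.9% of its exon bases with DHX8 on the opposite strand, which had 426 and 420 reads in control and 507 and 558 in NRP-1 libraries.

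ETV5 had 60 and 92 reads in control and 48 and 60 in NRP-1 libraries. NRP-1 replicate 3 and control replicate 1 had the same read number, and they came to 7.05 and 7.39 CPM after scaling, so the separation of the groups rests on the scaling. Its log2 fold change was -0.55 (SE 0.30, adjusted p = 0.339, edgeR). ETV5 was the one gene of the 10 with more reads in NRP-1 replicate 3 than in replicate 2. The FPKM ratio of ETV4 to ETV5 was 2.39 and 1.67 in control and 7.13 and 3.78 in NRP-1 libraries, a difference of 1.38 in mean log2 ratio (exact two-sided permutation p = 0.33, the smallest possible). With ETV4 above and ETV5 below both controls, a higher ratio in both NRP-1 libraries follows from those values and is no further support. The FPKM ratio of SPRY1 to SPRY4 was also higher, at 1.62 and 1.17 in control and 2.51 and 3.03 in NRP-1 libraries. That of SPRED1 to SPRY2 was 2.41 and 2.69 in control and 3.14 and 4.39 in NRP-1 libraries.

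PHLDA1, a pleckstrin homology-like domain protein induced by ERK, had 252 and 246 reads in control and 233 and 201 in NRP-1 libraries. Both NRP-1 libraries were below both controls, by a small amount. The log2 fold change was -0.26 (SE 0.16, interval -0.66 to 0.15, adjusted p = 0.403, edgeR). PHLDA1 shares 6.9% and 9.7% of its exon bases with the opposite-strand genes AC011611.3 and AC011611.4. EPHA2, a receptor tyrosine kinase for ephrin-A ligands and an ERK target, had 142 and 147 reads in control and 151 and 134 in NRP-1 libraries. The libraries overlapped within a narrow range, with a log2 fold change of -0.08 (SE 0.18, interval -0.53 to 0.37, adjusted p = 0.833, edgeR).

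The gap between the NRP-1 libraries was the pattern shared by most of the 10 genes. NRP-1 replicate 3 lay below NRP-1 replicate 2 in 9 of the 10, against 51% of all genes tested. Among tested genes of the lists below, it did so for 9 of 13 other ERK output and feedback genes and 5 of 7 other phosphatases. The counts were 14 of 29 for the cascade, 4 of 11 for the receptor tyrosine kinases, 8 of 14 for the ETS list and 4 of 14 for the EPH list. The ratio of replicate 3 to replicate 2 ran from 0.288 (SPRY4) to 1.25 (ETV5), and its 95% counting interval lay below 1 for 7 genes (DUSP4, DUSP6, SPRY1, SPRY2, SPRY4, SPRED1 and ETV4), against 23.4% of all genes. The intervals cover counting error only, so whether they pass 1 also depends on the number of reads. Between the control libraries, the ratio of replicate 2 to replicate 1 ran from 0.964 (PHLDA1) to 1.51 (ETV5), and its interval lay above 1 for 4 genes (DUSP4, SPRY4, SPRED1 and ETV5), against 10.3% of all genes. With NRP-1 replicate 3 alone against the controls, edgeR called 5 of the 10 (DUSP4, DUSP6, SPRY1 and SPRY4 lower, ETV4 higher), against 36.8% of all genes. With NRP-1 replicate 2 alone, it called 3 of the 10 (DUSP6 lower, SPRY1 and ETV4 higher), against 28.2% of all genes. In these fits the lone library is assumed to vary like the controls. DUSP6 and ETV4 were called in the same direction in both, and SPRY1 in opposite directions.

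The remaining genes of the pathway were read from lists of 6 kinds in the same fit, chosen with earlier results of these data known. Among 16 other ERK output and feedback genes, 13 were tested and none passed edgeR's adjusted p of 0.05, against 1.09% of all genes. Before adjustment, 1 higher and 5 lower genes had a p under 0.05, against 22.9% of all genes in either direction. Their median log2 fold change was -0.62. Both NRP-1 libraries lay above both controls for 3 of them, against 27.9% of all genes, and below for 7, against 28.3%. IER3, an immediate early survival gene, had 1362 and 1416 reads in control and 794 and 402 in NRP-1 libraries (log2 fold change -1.27, adjusted p = 0.0891, edgeR). MYC, a transcription factor of growth, had 1113 and 1116 reads against 231 and 553 (-1.57, adjusted p = 0.0893, edgeR). DESeq2 called both lower, with adjusted p-values of 0.00105 and 0.000331. CCND1, which encodes the G1 cyclin D1, had 2943 and 3041 reads against 4787 and 3249 (0.37), and EPHA4, an ephrin receptor, 31 and 27 against 56 and 57 (0.90). MYC was lower in replicate 2 than in replicate 3, the reverse of IER3 and DUSP6. FOS and EGR1, immediate early transcription factors named here after their values were seen, had 1384 and 1059, and 2564 and 2236 reads in control. They had 1011 and 2018 reads in NRP-1 replicate 2 and 192 and 819 in NRP-1 replicate 3, which had the fewest reads of the 4 libraries, as it did for SPRY4 and DUSP6.

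Of 8 other MAP kinase phosphatases, 7 were tested and none was called by edgeR, against 1.09% of all genes. At an unadjusted p under 0.05 there were 1 higher and 1 lower gene, against 22.9% of all genes. The median log2 fold change was -0.47. Both NRP-1 libraries lay below both controls for 5 of them, against 28.3% of all genes, and above for 1, against 27.9%. DUSP2, a nuclear phosphatase, had 54 and 34 reads in control and 25 and 26 in NRP-1 libraries (log2 fold change -0.84). DUSP10, which acts mainly on p38 and JNK, had 78 and 75 reads against 54 and 43 (-0.72). DUSP7, a cytoplasmic ERK phosphatase of the DUSP6 type, had 154 and 137 reads against 212 and 240 (0.58, adjusted p = 0.142, edgeR), on the other side of the controls from DUSP6. DUSP8, which acts on JNK and p38, had 251 and 241 reads against 227 and 200 (-0.26).

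All 29 genes of the cascade itself were tested and none was called by edgeR, against 1.09% of all genes. At an unadjusted p under 0.05, 4 were higher and 4 lower, against 22.9% of all genes. The median log2 fold change was 0.03. Both NRP-1 libraries lay above both controls for 12 of them, against 27.9% of all genes, and below for 8, against 28.3%. HRAS, a RAS GTPase, came nearest, with 92 and 107 reads in control and 214 and 256 in NRP-1 libraries (log2 fold change 1.18, SE 0.20, adjusted p = 0.0561 in edgeR and 0.00341 in DESeq2). MKNK1, an ERK-activated kinase of the translation factor eIF4E, had 198 and 244 reads against 340 and 367 (0.62). Its relative MKNK2 lay on the other side, with 3962 and 3840 reads against 2481 and 1681 (-0.97, adjusted p = 0.0746 in edgeR and 0.000927 in DESeq2). KSR1, a scaffold for RAF, MEK and ERK, had 57 and 50 reads against 10 and 26 (-1.62).

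Of the 11 receptor tyrosine kinases upstream, FGFR4 was the one called by edgeR, against 1.09% of all genes, and it was higher. FGFR4, a receptor for fibroblast growth factors, had 230 and 331 reads in control and 767 and 994 in NRP-1 libraries, and the log2 fold change was 1.59 (SE 0.22, adjusted p = 0.0452, edgeR). The call did not hold without either control library or without the filter on low counts, where no gene's call held. It was also lost in limma, and DESeq2 gave an adjusted p of 2.59e-07. ERBB4 was at 0.84 on 19 to 50 reads, and IGF1R (-0.62) and MET (-0.50) were the lowest of the list, none of them called. The median of the list was 0.08. Both NRP-1 libraries lay above both controls for 5 of the 11, against 27.9% of all genes, and below for 4, against 28.3%.

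Among 15 ETS factors and regulators of ETV4 and ETV5, 14 were tested and edgeR called none, against 1.09% of all genes. At an unadjusted p under 0.05, 3 were higher and 1 lower, against 22.9% of all genes. The median log2 fold change was 0.16. Both NRP-1 libraries lay above both controls for 7 of the 14, against 27.9% of all genes, and below for 3, against 28.3%. The ETS repressors ETV3 (69 and 64 reads in control, 131 and 102 in NRP-1 libraries, 0.75) and ETV6 (206 and 200 against 336 and 293, 0.57) were the highest. DET1, a ubiquitin ligase component that with COP1 degrades ETV factors, had 67 and 57 reads against 40 and 33 (-0.82), and the epithelial factor ELF3 had 3298 and 3524 against 3070 and 1465 (-0.65). CIC, named for its octamer and after its value was seen, had 504 and 491 reads against 594 and 758 (0.38, adjusted p = 0.221, edgeR).

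Among 17 EPH receptors and ephrins, the family of EPHA2, 14 were tested and edgeR called 1, EFNB2, against 1.09% of all genes. At an unadjusted p under 0.05, 2 were higher and 4 lower, against 22.9% of all genes. The median log2 fold change was -0.19. Both NRP-1 libraries lay above both controls for 3 of the 14, against 27.9% of all genes, and below for 6, against 28.3%. EFNB2, the ligand ephrin-B2, was higher, with 108 and 94 reads in control and 262 and 279 in NRP-1 libraries (log2 fold change 1.36, SE 0.18, adjusted p = 0.0442, edgeR). The same alternatives as for FGFR4 ended the call, and DESeq2 gave 0.000178. EPHB3, a receptor of B-type ephrins, had 534 and 577 reads against 825 and 1026 (0.68, adjusted p = 0.0801 in edgeR and 0.0294 in DESeq2). The ephrins EFNB3 (-1.25, on 7 to 28 reads) and EFNA2 (-1.07, on 14 to 35 reads) were the lowest, and neither was called. DESeq2 called EFNA3 lower, an ephrin named here after its value was seen. It had 445 and 317 reads in control and 241 and 167 in NRP-1 libraries (-0.96, adjusted p = 0.107 in edgeR and 0.0288 in DESeq2).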

How the data were processed

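RNA from control cells and from cells with NRP-1 (2 libraries per group) was poly(A)-selected and sequenced. The processing notes name HISAT2 2.0.1, Bowtie2 2.2.5 and RSEM, with GRCh38 and hg19 and no role for either, so the only coordinates given are those of the RefSeq promoter stretches. Each deposited library file holds the authors' expected count of every gene, not normalized (32.8% of values above 0 were not whole), and an FPKM value with 2 decimals. A deposited table of the authors' own comparison, with group means, log2 ratios and probabilities, was not used. After rounding, the counts entered edgeR 4.0.16 under R 4.3.3 (TMM, factors 0.986 to 1.014; filterByExpr; glmQLFit and glmQLFTest, two-sided, Benjamini-Hochberg over all 14298 genes). CPM values use TMM-scaled library sizes. Symbols were matched for 99.4% of IDs. The test was run on simulated counts with the same spread in both groups and changes larger than those of the 10 genes. Unequal spread and smaller changes were not checked. Alternatives were DESeq2 1.42.0, no filter, no TMM, RLE factors, unrounded counts, each library left out, and limma 3.58.1 on the log2 of FPKM plus a pseudocount of 1 or 0.1, among genes whose mean FPKM reached 0.5. Intervals on ratios of libraries are exact binomial. The genes and lists were chosen with earlier results of these data known. Named are NRP1, the 10 genes, and from each list every called gene plus the 2 highest and 2 lowest log2 fold changes at a mean of at least 10 reads. Promoter windows are from RefSeq (GRCh38.p14).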

Additional observations from a re-analysis of the deposited data

How the results depend on the processing

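The number of all genes called was 156 with edgeR, 0 without the filter on low counts (3297 at an unadjusted p under 0.05), 953 with DESeq2, 6 and 22 with limma at pseudocounts of 1 and 0.1, and 0 to 5414 with 1 library left out. For the 10 MAPK genes the count of 0 remained with every alternative that kept all libraries, and was 0 to 5 with 1 left out. For the other pathway lists the count of 2 became 0 without the filter, 8 with DESeq2, 0 with limma at either pseudocount, and 0 to 47 with 1 library left out. The cause of these shifts was not tested. Of 70 single log2 fold changes of the 10 genes with all libraries kept, 67 kept direction and call, and the 3 that turned were SPRED1 at 0.02, with library sizes without TMM and with limma at both pseudocounts. Of 40 with a library left out, 27 were unchanged in direction and call, 7 were newly called in the same direction and 6 turned. The ranges were -0.37 to 0.09 for DUSP4, -0.49 to 1.04 for SPRY1, -1.66 to 0.15 for SPRY4, -0.18 to 0.14 for SPRED1 and -0.18 to 0.01 for EPHA2. SPRY1 without NRP-1 replicate 2 was both turned and called. No paired analysis was possible because the groups share only replicate number 2. SPRY2 and ETV5 rest on 26 to 92 reads per library, the lowest of the 10 genes by control mean.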
